A study of Homo sapiens with 45 samples.

Results

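Hypoxic T47D cells with a hairpin against ZHX2 were set against normoxic T47D cells with a control hairpin, over all genes. The comparison takes 6 of the 45 libraries of the study, which were chosen by their labels: 3 labelled shZHX2, hypoxia, and 3 labelled shCtrl, normoxia. T47D is a human cell line from a luminal breast cancer that has the oestrogen receptor. ZHX2 is a transcription factor with zinc fingers and homeodomains. 3 libraries labelled shCtrl, hypoxia, from the same count table show the hypoxic state of cells with the control hairpin. 6 further hypoxic libraries of another table, 3 labelled shZHX2 with vector and 3 labelled shCtrl with vector, hold the shZHX2 step in other samples. Lentivirus carried the constructs, carriers were kept by drug selection (puromycin or hygromycin), and polyA RNA was sequenced, per the labels' protocols. The sources used here do not give the oxygen level, the length of the hypoxia, the number of hairpins or whether a line was 1 clone. Oxygen and hairpin both differ between the 2 groups compared, and normoxic shZHX2 cells were not analysed here. An effect of the hairpin that is present at any oxygen level and one that needs hypoxia cannot be told apart. Nothing in the labels ties replicates to separate cultures. The p-values therefore rest on spread among libraries that may be technical only.

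When oxygen is low, the prolyl hydroxylases EGLN1, EGLN2 and EGLN3 and the VHL ubiquitin ligase no longer remove the HIF alpha subunits, which pair with ARNT and bind hypoxia response elements with the core ACGTG or GCGTG. The genes that HIF turns on let the cell take up more glucose, run glycolysis to lactate, export acid, hold pyruvate back from the mitochondria, remove mitochondria, and secrete factors that recruit vessels. ZHX2 has been described in kidney cancer as a protein that VHL can remove.

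Levels are CPM (counts scaled to library size with TMM factors) and are given per library. Fold changes are log2 values from edgeR's quasi-likelihood test for shZHX2 hypoxia over shCtrl normoxia unless another comparison is named, and a gene was called higher or lower at a Benjamini-Hochberg adjusted p under 0.05 over all 14903 genes tested. The 3 comparisons within the first table share libraries: shZHX2 hypoxia against shCtrl normoxia, shCtrl hypoxia against shCtrl normoxia, and shZHX2 hypoxia against shCtrl hypoxia. Their values are given side by side, and 95% intervals are not adjusted for the number of genes. In bulk RNA, fewer cells of a kind and less RNA per cell cannot be told apart.

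The ZHX2 transcript (ENSG00000178764) stood at 4.91, 3.75 and 6.79 CPM in the shZHX2 hypoxia libraries, against 16.5, 15.9 and 18.3 CPM in the shCtrl normoxia libraries (log2 fold change -1.71, SE 0.15, adjusted p = 5.32e-10). The groups did not overlap, and the shCtrl hypoxia libraries stood at 21.6, 18.3 and 16.4 CPM. Its relative ZHX3 was higher (log2 fold change 0.59, SE 0.058) and ZHX1 lower (log2 fold change -2.08, SE 0.095). A correction for GC content and length moved the median of the 3 ZHX genes from -1.71 to -0.90. With it 2 were still called lower, but only 1 at 2-fold or more. In shCtrl hypoxia against normoxia ZHX1 and ZHX3 were called lower, and between the hypoxic groups they were called higher in shZHX2 cells. Luminal markers were present: KRT8, a keratin of luminal epithelium, stood at 13136, 13054 and 12980 CPM in shZHX2 hypoxia cells, against 13231, 12358 and 12642 CPM in shCtrl normoxia cells, and GATA3, a luminal transcription factor, at 456 ± 9.99 CPM in shZHX2 hypoxia, against 569 ± 6.03 CPM in shCtrl normoxia (mean ± SD, n = 3 each). Of 13 markers of basal cells, fibroblasts, leukocytes and endothelium, 1 had enough counts to be tested, COL1A1, a collagen chain (70.7 ± 1.46 CPM in shZHX2 hypoxia, against 35 ± 1.81 CPM in shCtrl normoxia). The summed level of these 13 genes was 69.7 to 72.8 CPM in shZHX2 hypoxia libraries and 34 to 38 CPM in shCtrl normoxia libraries, and 5 and 5 of them, KRT5, COL1A2 and PECAM1 among them, had no count in these groups. Among the other 12 markers the highest was TP63, with 5 counts summed over shZHX2 hypoxia and 28 over shCtrl normoxia libraries.

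Total counts were 17476890 to 18463917 in the shZHX2 hypoxia libraries and 18302801 to 19472484 in the shCtrl normoxia libraries. Genes of the mitochondrial genome took 11.9% to 12.4% of the counts in shZHX2 hypoxia and 4.55% to 4.76% in shCtrl normoxia. The TMM factors were 0.992 to 0.999 and 1.18 to 1.20 in these groups. In the shCtrl hypoxia libraries the mitochondrial share was 9.12% to 9.57% and the TMM factors were 0.845 to 0.848. Counts also shifted to other transcripts by their make-up: the mean GC content weighted by counts was 54.1% to 54.3% in shZHX2 hypoxia and 53.3% to 53.5% in shCtrl normoxia.

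In all, 5959 genes (40.0% of those tested) were higher and 6199 (41.6%) lower in shZHX2 hypoxia than in shCtrl normoxia cells. At 2-fold or more, 2811 (18.9%) were higher and 3442 (23.1%) lower. Scaling by library size only shifted the median gene by -0.25 (log2), and 38.6% of the calls were then higher, against 49.0% with TMM. A rise smaller than this shift has a direction that depends on the scaling, while falls become larger with scaling by library size only. In shCtrl hypoxia against shCtrl normoxia 43.1% of genes were higher and 36.8% lower. Between the 2 hypoxic groups, shZHX2 against shCtrl, 33.6% were higher and 33.2% lower.

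The 8 lists of hypoxia genes held 83 genes, of which 78 were tested; the other 5, SLC2A3, SLC4A4, HIF3A and COX4I2 among them, had too few counts. In shZHX2 hypoxia against shCtrl normoxia 63 of the 78 were higher, 13 lower and 2 not called, with a median log2 fold change of 1.43, beside 40.0% higher, 41.6% lower and a median of 0.00 over all genes tested. In shCtrl hypoxia against shCtrl normoxia 64 were higher and 9 lower (43.1% and 36.8% of all genes), with a median of 1.66. Between the 2 hypoxic groups 26 were higher and 35 lower in shZHX2 cells (33.6% and 33.2% of all genes) and 17 were not called, with a median of -0.093. The promoters of 5 of these genes are shown because they span the responses described next: CA9, whose libraries with the hairpin overlap the hypoxic level of shCtrl cells, BNIP3, which lay close to it, PPP1R3C and LOX, which went past it, and ANGPTL4, which stayed below it. The windows, from RefSeq on GRCh38.p14, are 300 bases long, lie mostly before the gene's start and run 5′ to 3′ on its strand. Capitals mark ACGTG and GCGTG on either strand, with CACGTG counted once for each strand.
CA9: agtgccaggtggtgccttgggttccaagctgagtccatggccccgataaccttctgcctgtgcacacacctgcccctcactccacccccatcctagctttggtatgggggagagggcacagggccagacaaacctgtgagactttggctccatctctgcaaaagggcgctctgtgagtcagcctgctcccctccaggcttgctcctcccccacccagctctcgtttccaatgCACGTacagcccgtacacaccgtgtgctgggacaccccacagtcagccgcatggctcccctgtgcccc
BNIP3: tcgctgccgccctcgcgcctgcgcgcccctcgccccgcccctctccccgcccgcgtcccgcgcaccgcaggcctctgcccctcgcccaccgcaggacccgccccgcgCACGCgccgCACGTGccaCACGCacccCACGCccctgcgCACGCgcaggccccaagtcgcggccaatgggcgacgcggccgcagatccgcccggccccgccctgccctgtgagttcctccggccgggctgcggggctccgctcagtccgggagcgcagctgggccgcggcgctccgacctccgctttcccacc
PPP1R3C: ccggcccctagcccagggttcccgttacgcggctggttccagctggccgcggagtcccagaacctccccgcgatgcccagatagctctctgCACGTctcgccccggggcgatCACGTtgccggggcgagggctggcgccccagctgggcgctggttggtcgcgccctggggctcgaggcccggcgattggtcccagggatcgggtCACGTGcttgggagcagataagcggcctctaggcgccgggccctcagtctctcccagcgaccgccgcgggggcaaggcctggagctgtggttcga
LOX: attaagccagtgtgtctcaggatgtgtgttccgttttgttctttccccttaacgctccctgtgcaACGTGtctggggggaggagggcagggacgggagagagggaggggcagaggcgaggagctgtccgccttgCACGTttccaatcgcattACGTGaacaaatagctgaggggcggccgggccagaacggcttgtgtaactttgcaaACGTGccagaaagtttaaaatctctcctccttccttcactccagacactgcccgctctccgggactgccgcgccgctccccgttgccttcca
ANGPTL4: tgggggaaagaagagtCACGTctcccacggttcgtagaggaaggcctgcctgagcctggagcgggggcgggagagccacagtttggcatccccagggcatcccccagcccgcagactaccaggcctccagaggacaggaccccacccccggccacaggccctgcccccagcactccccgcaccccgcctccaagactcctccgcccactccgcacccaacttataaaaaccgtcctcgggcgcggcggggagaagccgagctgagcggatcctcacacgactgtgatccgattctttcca
The CA9 window (chr9:35673678-35673977, plus strand) and the ANGPTL4 window (chr19:8363905-8364204, plus strand) hold 1 match each, to ACGTG. The PPP1R3C window (chr10:91633022-91633321, minus strand) and the LOX window (chr5:122078210-122078509, minus strand) hold 4 matches each, all to ACGTG, and the BNIP3 window (chr10:131981874-131982173, minus strand) holds 2 matches to ACGTG and 4 to GCGTG. Of 27305 promoter windows of the same length, 48.4% hold either core, and of the 70 windows found for genes of the hypoxia lists 75.7% do (53 windows). A match is a match of letters and not a measured binding site.

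Among the oxygen sensors, EGLN3, a hydroxylase that is itself induced by HIF, had 45.3, 41.5 and 42.9 CPM in shZHX2 hypoxia libraries, against 4.65, 3.51 and 3.99 CPM in shCtrl normoxia libraries (log2 fold change 3.42, SE 0.089). It went past the shCtrl hypoxia libraries, which had 21, 23.9 and 22.3 CPM (shZHX2 against shCtrl in hypoxia 0.95, adjusted p = 6.86e-18). EGLN1, the main hydroxylase of HIF in normoxia, was higher (log2 fold change 1.81, SE 0.11), as was EGLN2 (log2 fold change 1.58, SE 0.094), and neither was called between the hypoxic groups (0.21, 95% interval 0.012 to 0.41, and 0.095, interval -0.077 to 0.27). These 2 results depend on the processing. EGLN1 was called higher in shZHX2 than in shCtrl hypoxia with DESeq2's size factors (0.25), with scaling by library size only (0.44), with the replicate number as a block (adjusted p = 0.0493), and without library 2 of shCtrl hypoxia (0.30) or library 3 of shZHX2 hypoxia (0.27). EGLN2 was called higher after a correction for GC content and length (0.36) and with scaling by library size only (0.33). VHL stood at 82.3, 94.9 and 97 CPM in shZHX2 hypoxia libraries, against 33.5, 33.8 and 33.6 CPM in shCtrl normoxia libraries (log2 fold change 1.44, SE 0.054). Most of this lay between the hypoxic groups, since shCtrl hypoxia cells had 38 ± 1.14 CPM (shCtrl hypoxia against normoxia 0.18, or -0.31 with scaling by library size only, and not called by DESeq2; shZHX2 against shCtrl in hypoxia 1.26, adjusted p = 1.14e-28). HIF1A, the transcript of the alpha subunit, stood at 8.03, 7.62 and 8.45 CPM in shZHX2 hypoxia libraries, against 71.3, 71.9 and 74.3 CPM in shCtrl normoxia libraries (log2 fold change -3.17, SE 0.074), while EPAS1, which encodes the HIF-2 alpha subunit, was higher (log2 fold change 0.71, SE 0.058). HIF1A was lower still in shCtrl hypoxia cells (5.06 ± 0.914 CPM). ARNT, the partner subunit, fell (log2 fold change -0.50, SE 0.061), and CITED2, a HIF-induced competitor for its coactivator, rose (log2 fold change 1.56, SE 0.032) but stayed below the shCtrl hypoxia level (shZHX2 against shCtrl in hypoxia -1.08, adjusted p = 1.24e-37). In this list 8 of 10 tested members were higher and 2 lower (40.0% and 41.6% over all genes).

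Genes of glucose uptake and glycolysis were higher in 18 of 19 cases and lower in 1 (40.0% and 41.6% over all genes). Their median log2 fold change was 1.56. In shCtrl hypoxia against normoxia they were higher in 17 and lower in 1 (43.1% and 36.8% over all genes), with a median of 1.94. After the GC and length correction the shZHX2 hypoxia comparison gave 16 higher and 3 lower (median 1.12). SLC2A1, the basal glucose transporter, had 500.2, 496 and 491 CPM in shZHX2 hypoxia libraries, against 33.1, 30.2 and 29.2 CPM in shCtrl normoxia libraries (log2 fold change 4.01, SE 0.035). HK2, which phosphorylates glucose at the mitochondrial surface, had 155, 157 and 163 CPM in shZHX2 hypoxia, against 17.4, 17.9 and 18.3 CPM in shCtrl normoxia (log2 fold change 3.15, SE 0.049). Both stood above the shCtrl hypoxia libraries, SLC2A1 slightly (442 ± 0.932 CPM; 0.17, adjusted p = 7.99e-07) and HK2 more than 2-fold (60.3 ± 1.49 CPM; 1.39, adjusted p = 7.69e-36). PFKFB4 (log2 fold change 4.28, SE 0.051), which makes the activator of phosphofructokinase, and ENO2, the neuronal enolase (log2 fold change 4.32, SE 0.088), also went past the hypoxic level of shCtrl cells (0.33 and 0.83 between the hypoxic groups). Others stopped short of it. PGK1, phosphoglycerate kinase, had 3149, 3139 and 3136 CPM in shZHX2 hypoxia libraries, against 441, 448 and 459 CPM in shCtrl normoxia libraries (log2 fold change 2.81, SE 0.025). PGK1 had 3575, 3607 and 3599 CPM in shCtrl hypoxia libraries. LDHA, which turns pyruvate into lactate, had 948, 963 and 985 CPM in shZHX2 hypoxia libraries, against 336, 313 and 336 CPM in shCtrl normoxia libraries (log2 fold change 1.56, SE 0.027). LDHA had 1114, 1112 and 1132 CPM in shCtrl hypoxia libraries. Between the hypoxic groups the enzymes ALDOA, ALDOC, TPI1, GAPDH, PGK1, PGAM1, ENO1, PKM and LDHA were all lower in shZHX2 cells, by 0.19 (PGK1) to 0.68 (ENO1) on the log2 scale; the falls under 0.23 are within the shift that scaling by library size gives this comparison. PFKL, the liver phosphofructokinase, was close to its normoxic level (608 ± 2.01 CPM in shZHX2 hypoxia, 538 ± 9.38 CPM in shCtrl normoxia; 0.18, and -0.43 after the GC and length correction or -0.074 with scaling by library size only). PFKL had 1211 ± 27.1 CPM in shCtrl hypoxia libraries. HK1, the housekeeping hexokinase, was the 1 member that fell with TMM scaling (log2 fold change -0.48, SE 0.029).

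**Figure D1:**
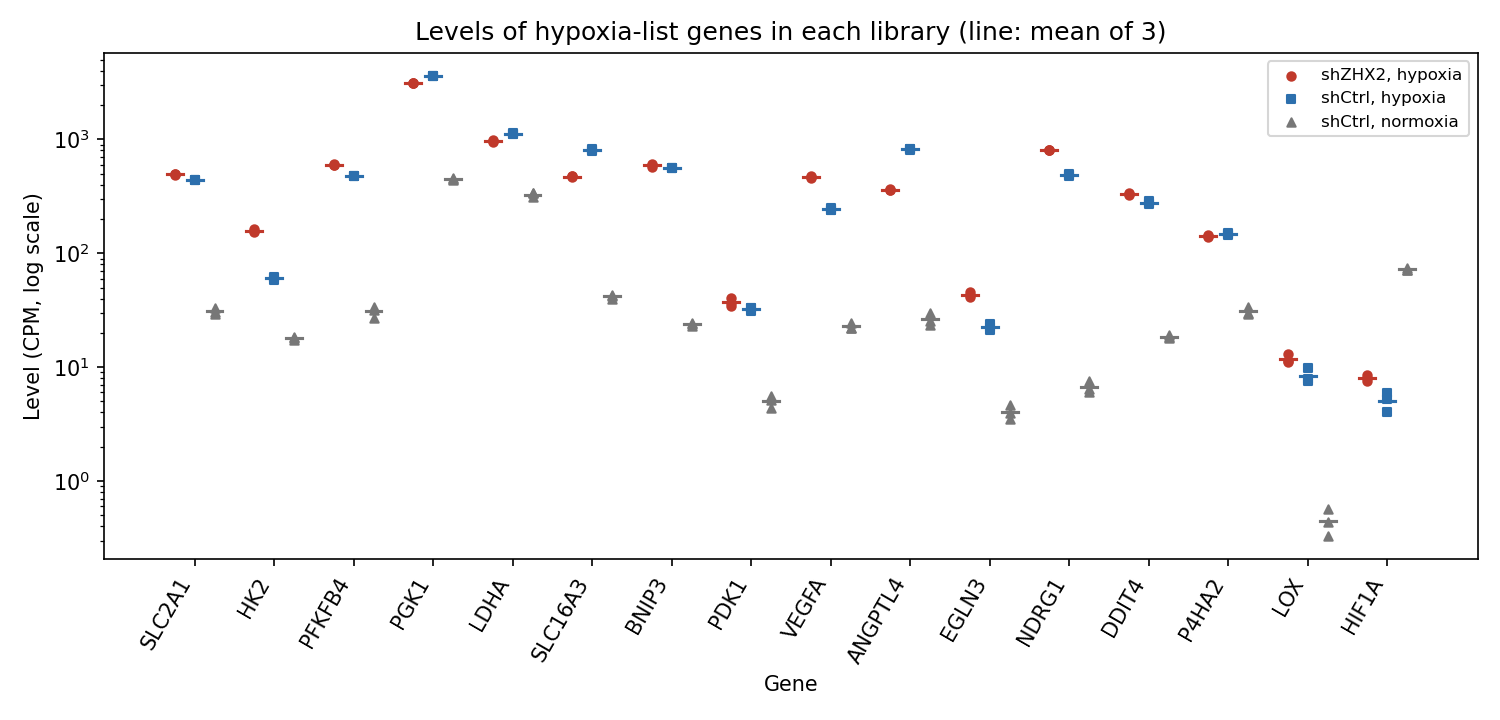
Level of 16 hypoxia-list genes in each library (CPM, log axis; levels are not comparable between genes) in shZHX2 hypoxia, shCtrl hypoxia and shCtrl normoxia, with a line at the mean of 3 libraries. Apart from HIF1A, which is lower in both hypoxic groups, each gene is higher in all 3 shZHX2 hypoxia libraries than in all 3 shCtrl normoxia libraries. HK2, VEGFA, EGLN3 and NDRG1 lie above the shCtrl hypoxia libraries, while SLC16A3 and ANGPTL4 lie below them. Smaller gaps also part other genes from the shCtrl hypoxia libraries, among them SLC2A1 above and PGK1 and LDHA below.

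Of 6 tested genes for lactate, proton and bicarbonate handling 4 were higher and 2 lower (40.0% and 41.6% over all genes). Their median was 0.62, and after the GC and length correction 3 were higher and 2 lower (median 0.064). CA9, a carbonic anhydrase of the cell surface and a standard hypoxia marker (chromosome 9, 35673856 to 35681159, plus strand), had 23.3, 25.5 and 23.9 CPM in shZHX2 hypoxia libraries and 1 count summed over the shCtrl normoxia libraries, against 1306 counts in shZHX2 hypoxia, a ratio of 1634 with an exact 95% counting interval of 292.8 to 64600. The shCtrl hypoxia libraries had 24.4, 23.2 and 23 CPM, which overlaps the shZHX2 libraries (0.045 between the hypoxic groups, 95% interval -0.12 to 0.21, no call). CA9 was called higher in shZHX2 than in shCtrl hypoxia after the GC and length correction (0.27, adjusted p = 0.00339) and with scaling by library size only (0.28, adjusted p = 0.00288). SLC16A3, the lactate exporter, had 466, 475 and 474 CPM in shZHX2 hypoxia libraries, against 43.2, 40.0 and 42.2 CPM in shCtrl normoxia libraries (log2 fold change 3.50, SE 0.033). SLC16A3 had 808 ± 16.1 CPM in shCtrl hypoxia libraries. BSG, the chaperone of the lactate transporters, rose (log2 fold change 0.65, SE 0.026; with the GC and length correction 0.022, not called), and stood below the shCtrl hypoxia level (-0.70). CA12, another surface carbonic anhydrase, fell under its normoxic level, at 143, 144 and 148 CPM in shZHX2 hypoxia libraries, against 309.6, 296 and 296 CPM in shCtrl normoxia libraries (log2 fold change -1.05, SE 0.031). The shCtrl hypoxia libraries stood at 351 ± 10.1 CPM (0.23 against normoxia, and -0.26 with scaling by library size only, so its direction there depends on the scaling).

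Genes that hold pyruvate back and remodel mitochondria were higher in 7 of 9 cases and lower in 2 (40.0% and 41.6% over all genes). Their median was 0.66, and after the GC and length correction 8 were higher and 1 lower (median 1.47). BNIP3, a mitophagy receptor, had 577, 603 and 592 CPM in shZHX2 hypoxia libraries, against 22.8, 24.1 and 24.2 CPM in shCtrl normoxia libraries (log2 fold change 4.64, SE 0.035). PDK1, the kinase that shuts pyruvate dehydrogenase, had 36.4, 34.5 and 40.3 CPM in shZHX2 hypoxia, against 5.58, 5.18 and 4.38 CPM in shCtrl normoxia (log2 fold change 2.88, SE 0.087). Both were called slightly above the shCtrl hypoxia level (0.071, adjusted p = 0.0173, and 0.20, adjusted p = 0.0106), and PDK1 turned to -0.082 after the GC and length correction. Scaling by library size only raises the median gene between the hypoxic groups by 0.23, and so would enlarge these rises. Leaving out 1 library ended both calls: that of BNIP3 without library 1, 2 or 3 of shCtrl hypoxia (adjusted p = 0.079, 0.0597 and 0.057) or library 2 of shZHX2 hypoxia (0.114), and that of PDK1 without library 2 of shCtrl hypoxia (0.0622) or library 3 of shZHX2 hypoxia (0.133). NDUFA4L2, a respiratory chain protein of hypoxic cells (log2 fold change 2.48, SE 0.23), and MXI1, a MYC antagonist (log2 fold change 2.42, SE 0.088), rose as well, without a call between the hypoxic groups. FUNDC1, another mitophagy receptor, fell (log2 fold change -1.90, SE 0.12), and HIGD1A was lower (-0.69; 0.30 and a call the other way after the GC and length correction).

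Among the secreted factors 6 of 9 were higher and 2 lower (40.0% and 41.6% over all genes), and the members parted from each other. Their median was 1.30, and after the GC and length correction 7 were higher and 1 lower (median 0.75). VEGFA, the vascular growth factor, had 479, 464 and 455 CPM in shZHX2 hypoxia libraries, against 24.2, 22.2 and 22 CPM in shCtrl normoxia libraries (log2 fold change 4.35, SE 0.038). VEGFA had 242, 248 and 239.6 CPM in shCtrl hypoxia libraries (0.94 between the hypoxic groups, adjusted p = 2.83e-35). VEGFA was thus higher with the hairpin than without it at low oxygen, with no overlap of the libraries. PGF, placental growth factor, rose to a level not called different from that of shCtrl hypoxia cells (log2 fold change 4.66, SE 0.16; 0.14 between the hypoxic groups, 95% interval -0.060 to 0.34), but was called above it after the GC and length correction (0.43) and with scaling by library size only (0.37). ANGPTL4, a secreted inhibitor of lipoprotein lipase, had 363, 358 and 356 CPM in shZHX2 hypoxia libraries, against 29.7, 23.5 and 25.6 CPM in shCtrl normoxia libraries (log2 fold change 3.77, SE 0.046). ANGPTL4 had 830.0, 819 and 811 CPM in shCtrl hypoxia libraries. STC2, a secreted glycoprotein, had 685, 674 and 683 CPM in shZHX2 hypoxia libraries, against 1196, 1162 and 1200 CPM in shCtrl normoxia libraries (log2 fold change -0.80, SE 0.024). STC2 had 2653, 2648 and 2659 CPM in shCtrl hypoxia libraries. ANGPTL4 therefore rose to less than the shCtrl hypoxia level, and STC2, which hypoxia raised in shCtrl cells (1.16), ended below the normoxic libraries. ADM, the vasodilator adrenomedullin, rose (log2 fold change 1.30, SE 0.049), and STC1 was not called (0.057, 95% interval -0.14 to 0.25) but was called higher after the GC and length correction (0.75, adjusted p = 3.01e-10).

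For collagen hydroxylation and crosslinking 5 of 6 genes were higher and 1 lower (40.0% and 41.6% over all genes), with a median of 1.74. LOX, the lysyl oxidase that crosslinks collagen, had 13.1, 11.4 and 11 CPM in shZHX2 hypoxia libraries, against 0.326, 0.571 and 0.434 CPM in shCtrl normoxia libraries (log2 fold change 4.71, SE 0.20). P4HA2, a collagen prolyl hydroxylase subunit, rose without a call between the hypoxic groups (log2 fold change 2.21, SE 0.045; -0.050, interval -0.13 to 0.030, and a call of 0.18 with scaling by library size only), P4HA1 rose (log2 fold change 1.19, SE 0.070), and PLOD2, a lysyl hydroxylase, was lower (-0.82; 0.28 and a call the other way after the GC and length correction). Of 6 glycogen genes 4 were higher and 2 lower (40.0% and 41.6% over all genes). PPP1R3C, which brings a phosphatase to glycogen, had 7.51, 8.49 and 7.23 CPM in shZHX2 hypoxia libraries, against 0.140, 0.0878 and 0 CPM in shCtrl normoxia libraries, 95.8-fold higher. PPP1R3C had 3.71, 3.35 and 4.93 CPM in shCtrl hypoxia libraries. Glycogen synthase GYS1 rose (log2 fold change 1.63, SE 0.031), while the glycogen phosphorylase PYGL had 12.9, 11.5 and 14.5 CPM in shZHX2 hypoxia libraries, against 35, 34.9 and 35.6 CPM in shCtrl normoxia libraries (log2 fold change -1.44, SE 0.074). PYGL was thus lower with the hairpin although shCtrl hypoxia cells were above the normoxic level (48.4 ± 3.98 CPM).

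Of 14 other HIF target genes 12 were higher and 1 lower (40.0% and 41.6% over all genes), with a median of 1.10. NDRG1, a stress-responsive gene, had 804, 804 and 816 CPM in shZHX2 hypoxia libraries, against 6.10, 6.45 and 7.59 CPM in shCtrl normoxia libraries (120.0-fold; log2 fold change 6.91, SE 0.043). NDRG1 had 492, 485 and 477 CPM in shCtrl hypoxia libraries. DDIT4, an inhibitor of mTORC1 signalling (log2 fold change 4.16, SE 0.040), TMEM45A (log2 fold change 4.93, SE 0.33) and ERO1A, the oxidase of the endoplasmic reticulum (log2 fold change 1.42, SE 0.046), rose, and all 4 stood above the shCtrl hypoxia level, by 0.33 for ERO1A, 0.25 for DDIT4, 0.74 for NDRG1 and 0.81 for TMEM45A. For ERO1A this call was lost after the GC and length correction (0.085, adjusted p = 0.0786). KDM4B, a histone demethylase, and BHLHE40, a circadian repressor, rose but remained below it (log2 fold change 0.75, SE 0.028, with -0.60 between the hypoxic groups; log2 fold change 0.43, SE 0.040, with -0.68). TFRC, the transferrin receptor, was the 1 member that fell, to 116, 115 and 115 CPM in shZHX2 hypoxia libraries, against 834, 838 and 867 CPM in shCtrl normoxia libraries (log2 fold change -2.88, SE 0.030).

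**Figure D2:**
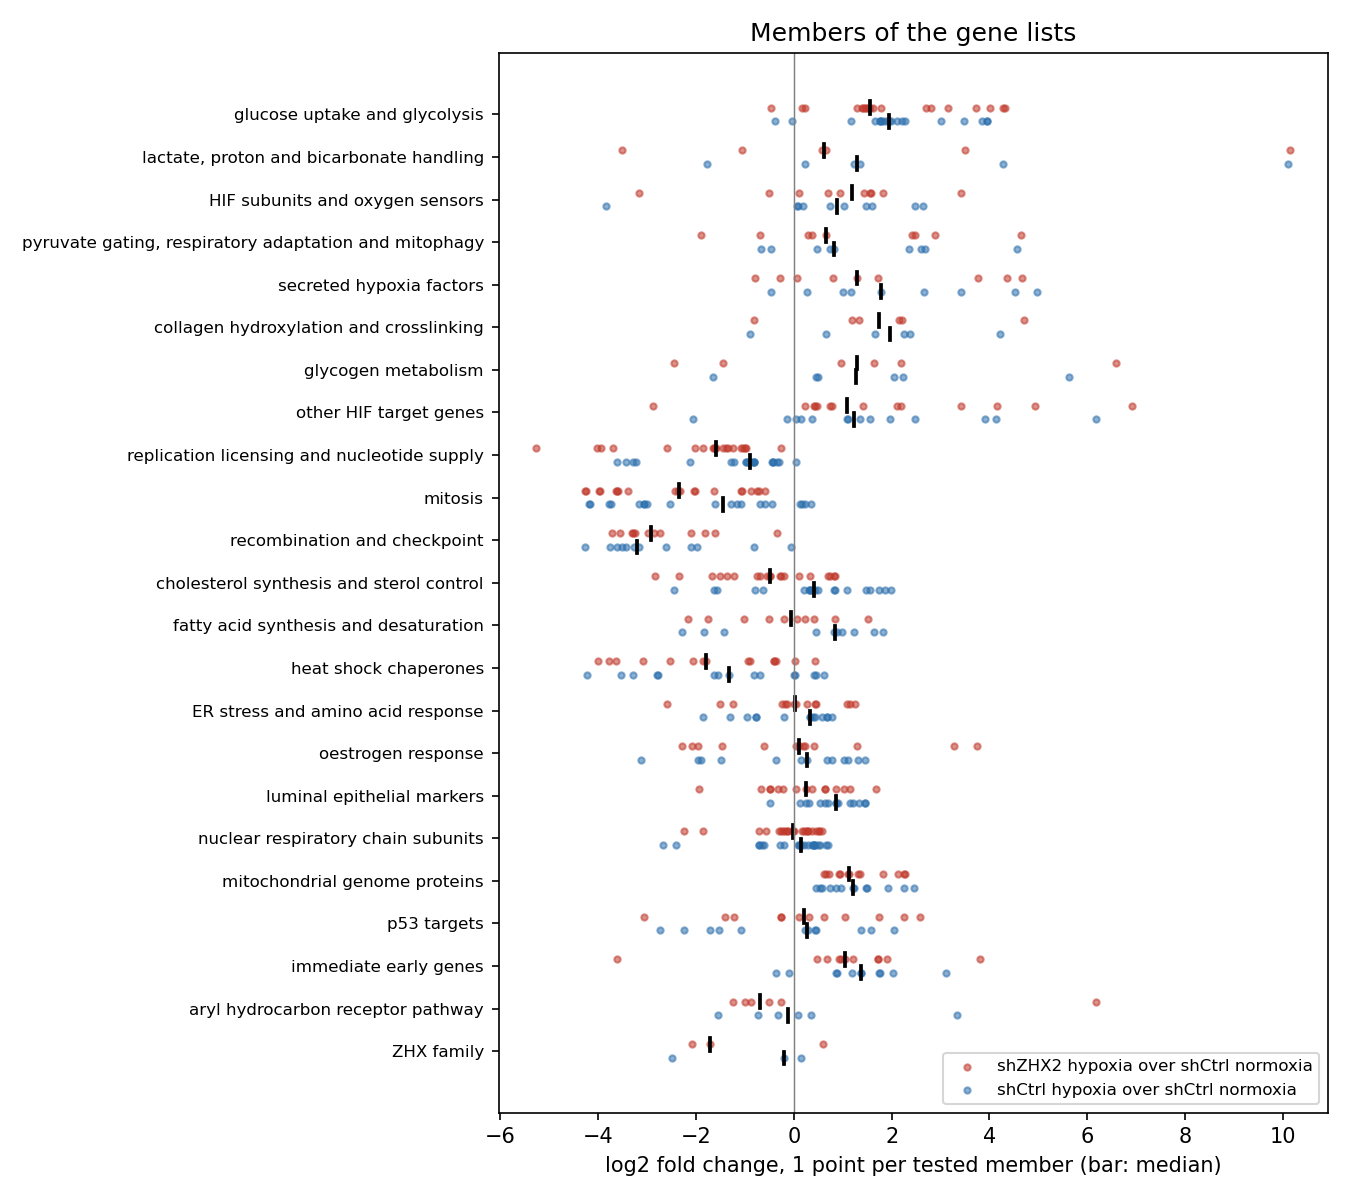
Log2 fold change of each tested member of 23 gene lists, for shZHX2 hypoxia over shCtrl normoxia and for shCtrl hypoxia over shCtrl normoxia, which share the normoxic libraries; black bars are list medians. Medians of the hypoxia lists lie to the right in both comparisons, those of replication, mitosis, recombination and heat shock chaperones to the left, and those of cholesterol synthesis lie on opposite sides of 0 (-0.49 with shZHX2 and 0.41 with shCtrl).

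Genes at their hypoxic level were picked by a rule on these 9 libraries: called at 4-fold or more in shCtrl hypoxia against normoxia and the same way in shZHX2 hypoxia, with no call and under 0.2 on the log2 scale between the hypoxic groups. After CA9 and PGF, the largest rises were ARID5A, an RNA-binding regulator (17.4 ± 0.101 CPM in shZHX2 hypoxia, against 1.56 ± 0.466 CPM in shCtrl normoxia), LDLRAD1 (7.15 ± 0.683 CPM in shZHX2 hypoxia, against 0.660 ± 0.313 CPM in shCtrl normoxia), CASKIN1, a synaptic scaffold (32.2 ± 0.982 CPM in shZHX2 hypoxia, against 3.38 ± 0.492 CPM in shCtrl normoxia), and CACNA1B, a neuronal calcium channel subunit (14.4 ± 0.612 CPM in shZHX2 hypoxia, against 1.52 ± 0.628 CPM in shCtrl normoxia). The largest falls were CENPF of the kinetochore (6.22 ± 0.759 CPM in shZHX2 hypoxia, against 97.4 ± 6.23 CPM in shCtrl normoxia), the DNA polymerase POLQ (-3.88), the helicase BLM (-3.72), the kinesin KIF14 (-3.66), CPLANE1 (-3.65) and NEMF of the ribosome quality control (-3.54). These 6 falling transcripts have a GC content of 37.5% to 41.2% and lengths of 5258 to 11199 bases, and after the GC and length correction their falls were -2.30 to -2.69. The place at the hypoxic level depends on the processing: after this correction CA9 (0.27) and PGF (0.43) were called above shCtrl hypoxia. Over the 2965 genes with the lowest GC content, up to 41.7%, the median between the hypoxic groups was 0.27 without it. Whether the other genes named here keep their place after it is not shown. The values chose these genes and are given as a description.

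Genes at their normoxic level were picked in the same way: called at 2-fold or more in shCtrl hypoxia against normoxia and at 2-fold or more the other way between the hypoxic groups, with no call and under 0.5 on the log2 scale against normoxia. LRRN2, a leucine-rich repeat membrane protein, had 8.37, 7.34 and 7.51 CPM in shZHX2 hypoxia libraries and 7.40, 7.95 and 8.02 CPM in shCtrl normoxia libraries. LRRN2 had 38.8, 41.6 and 39 CPM in shCtrl hypoxia libraries. LAMB3, a laminin chain of epithelial basement membranes, had 6.70, 6.42 and 5.69 CPM in shZHX2 hypoxia libraries and 7.68, 6.76 and 7.20 CPM in shCtrl normoxia libraries. LAMB3 had 36, 31.4 and 31.6 CPM in shCtrl hypoxia libraries. For both, the shCtrl hypoxia libraries stood apart from the other 2 groups. The place at the normoxic level depends on the scaling: after the GC and length correction LAMB3 (-0.69) and LRRN2 (-0.41) were called below normoxia, as they were with scaling by library size only (-0.45 and -0.26). The others with a hypoxic rise were the tubulin gene TUBB2B (0.759 CPM in shZHX2 hypoxia, 5.50 CPM in shCtrl hypoxia and 0.711 CPM in shCtrl normoxia), the lipid flippase ATP8B3, SUSD2 and RASL11A. SUSD2 was called below normoxia after the correction (-0.39), and ATP8B3 above it without library 3 of shCtrl normoxia (0.53). With a hypoxic fall they were FMR1, whose loss causes fragile X syndrome (8.26, 10.7 and 7.68 CPM in shZHX2 hypoxia, 7.40, 8.17 and 8.80 CPM in shCtrl normoxia, 1.76, 2.28 and 2.37 CPM in shCtrl hypoxia), the kinase SNRK, PCDHB14 of the protocadherin cluster, ARL6 of cilia, and the transcription factors ZNF248 and SP4. After the GC and length correction the 6 genes of the second group were above the normoxic level by 0.54 to 1.37, all called. With scaling by library size only ZNF248 (-0.54) and SP4 (-0.71) were called below it, and SP4 was called below it also in the fit of 6 libraries (-0.45) and without library 1 (-0.46) or 3 (-0.46) of shCtrl hypoxia or library 2 of shCtrl normoxia (-0.53).

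Several genes of lipid synthesis lay near or under the normoxic level. Of 20 genes of cholesterol synthesis and sterol control, 6 rose and 14 fell in shZHX2 hypoxia against shCtrl normoxia (median -0.49), beside 15 higher and 5 lower in shCtrl hypoxia against normoxia (median 0.41). INSIG1, the sterol-regulated retention protein of SREBP, had 47.8, 45.1 and 45.3 CPM in shZHX2 hypoxia, against 36.3, 39.1 and 34.1 CPM in shCtrl normoxia (log2 fold change 0.34, SE 0.051). INSIG1 had 144, 146 and 144 CPM in shCtrl hypoxia libraries. With scaling by library size only the rise of INSIG1 over normoxia was not called (0.084, adjusted p = 0.128). INSIG1 thus lay near the normoxic level and far from the hypoxic level of shCtrl cells (-1.65 between the hypoxic groups). SQLE, which makes squalene epoxide, went under the normoxic level (log2 fold change -1.22, SE 0.058), as did FDFT1, squalene synthase (log2 fold change -0.74, SE 0.030). DHCR7, an enzyme of the last steps, stayed above it (log2 fold change 0.84, SE 0.027), with MVD (log2 fold change 0.81, SE 0.034) and LSS (log2 fold change 0.75, SE 0.031). Of 10 fatty acid genes 5 were higher and 5 lower (median -0.063, and 0.85 in shCtrl hypoxia against normoxia), and 3 higher and 6 lower after the GC and length correction. Over all genes 40.0% were higher and 41.6% lower in shZHX2 hypoxia against shCtrl normoxia. SCD, the stearoyl-CoA desaturase, had 672, 666 and 687 CPM in shZHX2 hypoxia libraries, against 642, 627 and 656 CPM in shCtrl normoxia libraries (log2 fold change 0.072, SE 0.025; -0.18 with scaling by library size only). This call was lost without a filter on low counts (0.030), without library 2 of shCtrl normoxia (0.051) and without library 3 of shZHX2 hypoxia (0.057). SCD had 2288, 2287 and 2287 CPM in shCtrl hypoxia libraries. ACLY, which makes cytosolic acetyl-CoA, fell (log2 fold change -0.50, SE 0.030), whereas ACSS2, which makes it from acetate, rose past the hypoxic level of shCtrl cells (log2 fold change 1.52, SE 0.047; 0.54 between the hypoxic groups).

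Luminal markers gave 8 higher and 6 lower of 15 (median 0.25), and 14 higher and 1 lower in shCtrl hypoxia against normoxia. Over all genes 40.0% were higher and 41.6% lower in shZHX2 hypoxia against shCtrl normoxia. After the GC and length correction the luminal markers gave 5 higher and 8 lower (median -0.14), so their balance depends on it. KRT8 was not called against normoxia (0.035, 95% interval -0.013 to 0.083). It was called lower after the correction (-0.37) and with scaling by library size only (-0.22), and higher with a filter at 1 CPM (0.082) and without library 1 of shCtrl normoxia (0.056). KRT8 had 35453, 34867 and 35044 CPM in shCtrl hypoxia libraries. Its partner KRT18 (log2 fold change -0.68, SE 0.043) and AGR2, a disulfide isomerase of secretory cells (log2 fold change -1.94, SE 0.030), were below the normoxic level, and KRT19 (log2 fold change 0.86, SE 0.024) and MUC1, a surface mucin (log2 fold change 1.16, SE 0.029), above it. Oestrogen response genes gave 7 higher and 5 lower of 13 (median 0.11), and 3 higher and 6 lower after the correction (median -0.11). The trefoil gene TFF3 had 262, 265 and 250.0 CPM in shZHX2 hypoxia libraries, against 28.2, 24.4 and 28.2 CPM in shCtrl normoxia libraries (log2 fold change 3.27, SE 0.046), and 57.6, 55.4 and 52.6 CPM in shCtrl hypoxia libraries, and TFF1 rose as well (log2 fold change 3.74, SE 0.18). ESR1, the oestrogen receptor (log2 fold change -0.60, SE 0.047), and PGR, the progesterone receptor (log2 fold change -2.08, SE 0.039), fell. MYC was above its normoxic level (log2 fold change 0.40, SE 0.044; with the GC and length correction -0.027, not called) and below that of shCtrl hypoxia cells (-1.06, adjusted p = 7.64e-31).

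Genes of cell division were lower throughout, beside 41.6% lower over all genes. All 20 replication licensing and nucleotide supply genes fell in shZHX2 hypoxia against shCtrl normoxia (median -1.60; 19 lower after the GC and length correction), beside 19 of them in shCtrl hypoxia against normoxia (median -0.89). MCM10, a replication initiation factor, had 0.635, 0.762 and 0.773 CPM in shZHX2 hypoxia libraries, against 27.4, 26.5 and 30.5 CPM in shCtrl normoxia libraries (log2 fold change -5.27, SE 0.16). MCM10 had 2.15, 3.42 and 2.25 CPM in shCtrl hypoxia libraries. MCM5 of the replicative helicase had 53.9, 46.2 and 52.2 CPM in shZHX2 hypoxia, against 193, 177 and 184 CPM in shCtrl normoxia (log2 fold change -1.86, SE 0.044). MCM5 had 108, 106 and 102 CPM in shCtrl hypoxia libraries. Both fell beyond the hypoxic level of shCtrl cells, as did 19 of the 20 genes between the hypoxic groups. RRM2, a subunit of ribonucleotide reductase (log2 fold change -1.64, SE 0.045), and the thymidylate synthase TYMS (log2 fold change -1.64, SE 0.10) were in this group. All 20 mitosis genes fell too (median -2.35; 19 after the correction), beside 16 lower and 4 higher in shCtrl hypoxia against normoxia. PLK1, the mitotic polo kinase, had 121, 125 and 126 CPM in shZHX2 hypoxia libraries, against 236, 219 and 226 CPM in shCtrl normoxia libraries (log2 fold change -0.87, SE 0.033). PLK1 had 253, 255 and 262 CPM in shCtrl hypoxia libraries. PLK1, AURKB, CDC20 and BIRC5 fell under the normoxic level with the hairpin (-0.75, -0.59 and -0.71 for AURKB, CDC20 and BIRC5) while they were above it in shCtrl hypoxia cells (0.18, 0.12, 0.23 and 0.34 for PLK1, AURKB, CDC20 and BIRC5, all under the 0.48 that scaling by library size moves that comparison, and all below 0 with that scaling and after the GC and length correction). TOP2A, the topoisomerase of dividing cells, had 6.87, 7.62 and 9.66 CPM in shZHX2 hypoxia libraries, against 153, 155 and 151 CPM in shCtrl normoxia libraries (log2 fold change -4.25, SE 0.066; -3.04 after the correction). Of 12 recombination and checkpoint genes all fell (median -2.92, and 11 lower with a median of -1.93 after the correction). Between the hypoxic groups 3 were higher, 2 lower and 7 not called in shZHX2 cells (33.6% higher and 33.2% lower over all genes). ATR, the checkpoint kinase, had 2.25, 1.63 and 2.04 CPM in shZHX2 hypoxia libraries, against 22, 23.2 and 24.5 CPM in shCtrl normoxia libraries (log2 fold change -3.55, SE 0.13). ATR had 1.17, 1.01 and 1.40 CPM in shCtrl hypoxia libraries.

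Of 15 heat shock genes 13 fell and 1 rose (median -1.79). HSP90AA1, the inducible HSP90, had 66.7, 62.5 and 64.1 CPM in shZHX2 hypoxia libraries, against 857, 876 and 909.6 CPM in shCtrl normoxia libraries (log2 fold change -3.77, SE 0.037), close to the 76.2 ± 5.63 CPM of shCtrl hypoxia cells. HSPD1, the mitochondrial chaperonin, fell further than in shCtrl hypoxia (log2 fold change -3.63, SE 0.045; -0.85 between the hypoxic groups, adjusted p = 1.12e-21). Genes of the endoplasmic reticulum gave 6 higher and 5 lower of 14 (median 0.02), beside 40.0% higher and 41.6% lower over all genes. The chaperone CALR, calreticulin, had 3869, 3881 and 3841 CPM in shZHX2 hypoxia libraries, against 1674, 1578 and 1610 CPM in shCtrl normoxia libraries (log2 fold change 1.25, SE 0.025). CALR had 2545, 2587 and 2611 CPM in shCtrl hypoxia libraries. DDIT3, a stress transcription factor, rose (log2 fold change 1.14, SE 0.12) and CHAC1, which degrades glutathione, fell (log2 fold change -2.59, SE 0.11).

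All 13 protein genes of the mitochondrial genome were higher (median 1.12; 1.22 in shCtrl hypoxia against normoxia). MT-CO1, of cytochrome oxidase, had 35520, 34828 and 35622 CPM in shZHX2 hypoxia libraries, against 7267, 7327 and 7564 CPM in shCtrl normoxia libraries (log2 fold change 2.26, SE 0.024). Nuclear subunits of the respiratory chain gave 10 higher and 8 lower of 23 (median -0.0075), beside 40.0% higher and 41.6% lower over all genes, and 8 higher and 13 lower after the GC and length correction (median -0.19), with UQCRC2 of the cytochrome bc1 complex at -2.23 and NDUFS1 of the first complex at -1.86. Of 12 p53 targets 7 were higher and 5 lower (median 0.21), beside 40.0% higher and 41.6% lower over all genes. At 2-fold or more 4 were higher and 3 lower, beside 18.9% and 23.1% over all genes. CDKN1A, the cell cycle inhibitor p21, had 427, 414 and 431 CPM in shZHX2 hypoxia libraries, against 127, 127 and 128 CPM in shCtrl normoxia libraries (log2 fold change 1.74, SE 0.029), and BTG2, an antiproliferative factor, rose (log2 fold change 2.26, SE 0.065). Of 11 immediate early genes 10 were higher, with JUN (log2 fold change 1.73, SE 0.032) and FOS (log2 fold change 1.73, SE 0.16) among them, and 1 was lower. The 1 that fell was DUSP6, the phosphatase of ERK, with 0.116, 1.09 and 0.497 CPM in shZHX2 hypoxia libraries, against 7.17, 6.89 and 7.33 CPM in shCtrl normoxia libraries (log2 fold change -3.62, SE 0.25). DUSP6 had 5.47, 5.95 and 5.29 CPM in shCtrl hypoxia libraries. In the aryl hydrocarbon receptor list 1 gene rose and 5 fell of 6, and 1 and 2 after the correction. The one that rose was CYP1A1, the monooxygenase that the receptor induces, at 119.6, 119 and 115 CPM in shZHX2 hypoxia libraries, against 1.16, 1.71 and 1.95 CPM in shCtrl normoxia libraries (72.6-fold). CYP1A1 had 15.1, 17.8 and 16 CPM in shCtrl hypoxia libraries.

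Genes changed beyond hypoxia were picked by rule as well, with calls at 2-fold or more the same way against normoxia and against shCtrl hypoxia, and no call or under 0.5 on the log2 scale in shCtrl hypoxia against normoxia. C12orf76 had 54.7, 53.4 and 56.2 CPM in shZHX2 hypoxia libraries, against 2.65, 2.50 and 3.04 CPM in shCtrl normoxia libraries. C12orf76 had 3.19, 4.11 and 4.14 CPM in shCtrl hypoxia libraries. SYP, synaptophysin of synaptic vesicles, had 59.3, 53.3 and 58.7 CPM in shZHX2 hypoxia, against 5.63, 6.23 and 6.59 CPM in shCtrl normoxia. SYP had 8.86, 7.97 and 8.64 CPM in shCtrl hypoxia libraries. The rule itself sets the shZHX2 hypoxia level of these genes apart from both other groups. For C12orf76 and SYP the shCtrl hypoxia libraries also lay above the shCtrl normoxia libraries, by far less. Others that were higher were CTNND2, a catenin of adherens junctions (19.8-fold), METTL7A (7.07-fold) and the glutamate transporter SLC1A1 (5.82-fold). The lower ones, beside DUSP6, were ANKRD2 (1.33, 1.47 and 1.21 CPM in shZHX2 hypoxia, against 11.7, 14.2 and 12.8 CPM in shCtrl normoxia), TMEM52B (8.13-fold), SUSD5 (8.10-fold), LRP8, a receptor of reelin (6.82-fold), and SIPA1, a GTPase activator of RAP1 (6.60-fold).

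**Figure D3:**
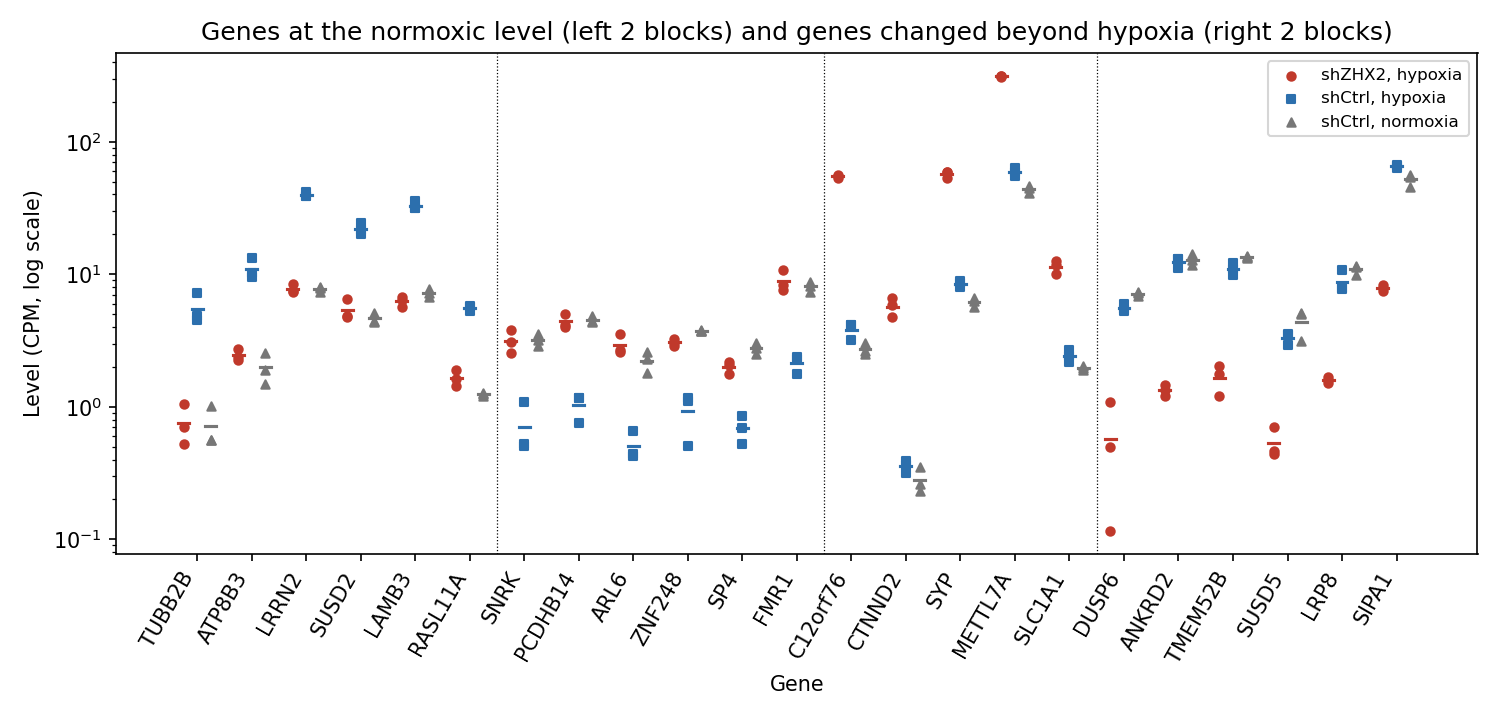
Level (CPM, log axis; not comparable between genes) of 23 genes picked by their place between the groups, in each library, with a line at the mean of 3. On this scale, in the left 2 blocks shZHX2 hypoxia and shCtrl normoxia libraries lie together and shCtrl hypoxia libraries apart; in the right 2 blocks the shZHX2 hypoxia libraries lie apart.

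The 12 largest rises over the normoxic level were CA9, NDRG1, PTPRN, PPP1R3C, SCNN1G, CYP1A1, PPFIA4, LINGO4, CXCR4, GRM4, RIMKLA and TMEM45A. PTPRN, of secretory granule membranes, had 209 counts in shZHX2 hypoxia and 2 in shCtrl normoxia, a ratio of 130.8 with an exact 95% counting interval of 35.8 to 1087, and it was below the shCtrl hypoxia level (-1.43, adjusted p = 7.44e-12). CXCR4, a chemokine receptor, had 6.87, 7.40 and 6.90 CPM in shZHX2 hypoxia libraries, against 0.186, 0.220 and 0.130 CPM in shCtrl normoxia libraries, 38.2-fold higher. CXCR4 had 2.15, 1.33 and 1.16 CPM in shCtrl hypoxia libraries. SCNN1G, a sodium channel subunit, and GRM4, a glutamate receptor, were 87.6-fold and 31.3-fold higher and likewise exceeded shCtrl hypoxia (1.26 and 2.18), as did the leucine-rich repeat gene LINGO4 (3.68), which was 45.8-fold higher than in normoxia. RIMKLA and PPFIA4 were 31.2-fold and 62.4-fold higher. The 12 largest falls were ANGPT1, RANBP3L, NOLC1, MCM10, NIPAL4, RECQL, IVL, DDX21, SLITRK4, SEMA3C, NSF and FAM111B. ANGPT1, the TIE2 ligand angiopoietin 1, had 0, 0.326 and 0.442 CPM in shZHX2 hypoxia libraries, against 16.9, 18.5 and 18.8 CPM in shCtrl normoxia libraries, 67.8-fold lower. ANGPT1 had 1.63, 2.66 and 2.74 CPM in shCtrl hypoxia libraries. NOLC1, a nucleolar chaperone, had 6.82, 5.66 and 7.34 CPM in shZHX2 hypoxia, against 269, 263 and 267 CPM in shCtrl normoxia, 40.3-fold lower. NOLC1 had 41.5, 43.3 and 39.6 CPM in shCtrl hypoxia libraries. DDX21, a nucleolar RNA helicase, fell 25.9-fold, SEMA3C, a secreted semaphorin, 22.9-fold, and NSF, the ATPase of vesicle fusion, 22.7-fold. ANGPT1, NOLC1, SEMA3C and NSF were more than 2-fold below the shCtrl hypoxia level too (-3.14, -2.65, -1.97 and -2.38). NIPAL4 and IVL, genes of skin cornification, fell 28.3-fold and 26.2-fold, with -0.85 and -0.75 in shCtrl hypoxia against normoxia.

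The shZHX2 step could be set beside other libraries, since the second table holds hypoxic shZHX2 cells with vector and hypoxic shCtrl cells with vector that share no library with these 9. There 33.9% of 14302 genes were higher and 35.3% lower, and ZHX2 was lower (log2 fold change -2.22, SE 0.067). Of the 78 hypoxia-list genes 12 were higher and 60 lower with shZHX2, with a median of -0.56, beside 26 higher and 35 lower in the first table. Of the 35 genes lower in the first set of libraries, 29 were lower in the second as well. Of the 26 that were higher, 20 were lower in the second, and of the 17 not called, 11 were. Lower calls thus prevailed in the second table whichever way the first table went, as among all 78 genes (60 lower). ANGPTL4 (-1.19 in the first table and -1.33 in the second), CITED2 (-1.08 and -1.09), CA12 (-1.28 and -1.11), PYGL (-1.90 and -1.40) and SCD (-1.76 and -1.78) were lower with shZHX2 in both. PPP1R3C had 0.202, 0 and 0.0408 CPM in shZHX2 cells with vector, against 0.555, 0.785 and 0.841 CPM in shCtrl cells with vector (log2 fold change -3.19, SE 0.57, adjusted p = 1.02e-06), and LOX had 11.6, 9.63 and 9.15 CPM in shZHX2 cells with vector, against 40.4, 45 and 42.9 CPM in shCtrl cells with vector (log2 fold change -2.09, SE 0.073, adjusted p = 1.43e-35). Both were higher with shZHX2 in the first table and lower in the second, with no overlap of the groups in either. NDRG1 (0.74 and -0.89), VEGFA (0.94 and -0.35) and EGLN3 (0.95 and -0.76) were placed in the same way. INSIG1 was lower in both but less so in the second (-0.66); the difference between the tables was not tested. Of the genes picked as changed beyond hypoxia, C12orf76 (1.69), SYP (1.37) and SLC1A1 (1.77) were higher in the second table too, CTNND2, METTL7A and LRP8 were not called there, SIPA1 was called higher (0.50), and DUSP6, ANKRD2, TMEM52B and SUSD5 had too few counts. The call of SIPA1 was lost with DESeq2 (adjusted p = 0.0544), after the GC and length correction (0.103), and without library 3 of shZHX2 cells with vector (0.0813) or of shCtrl cells with vector (0.102). CYP1A1 was not called in the second table (-0.028, 95% interval -0.078 to 0.022), but was called lower there after the GC and length correction (-0.097, adjusted p = 0.000153). Across 13060 genes tested in both tables Spearman's rho of the log2 fold changes was 0.25, a description across genes, which are not independent replicates.

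**Figure D4:**
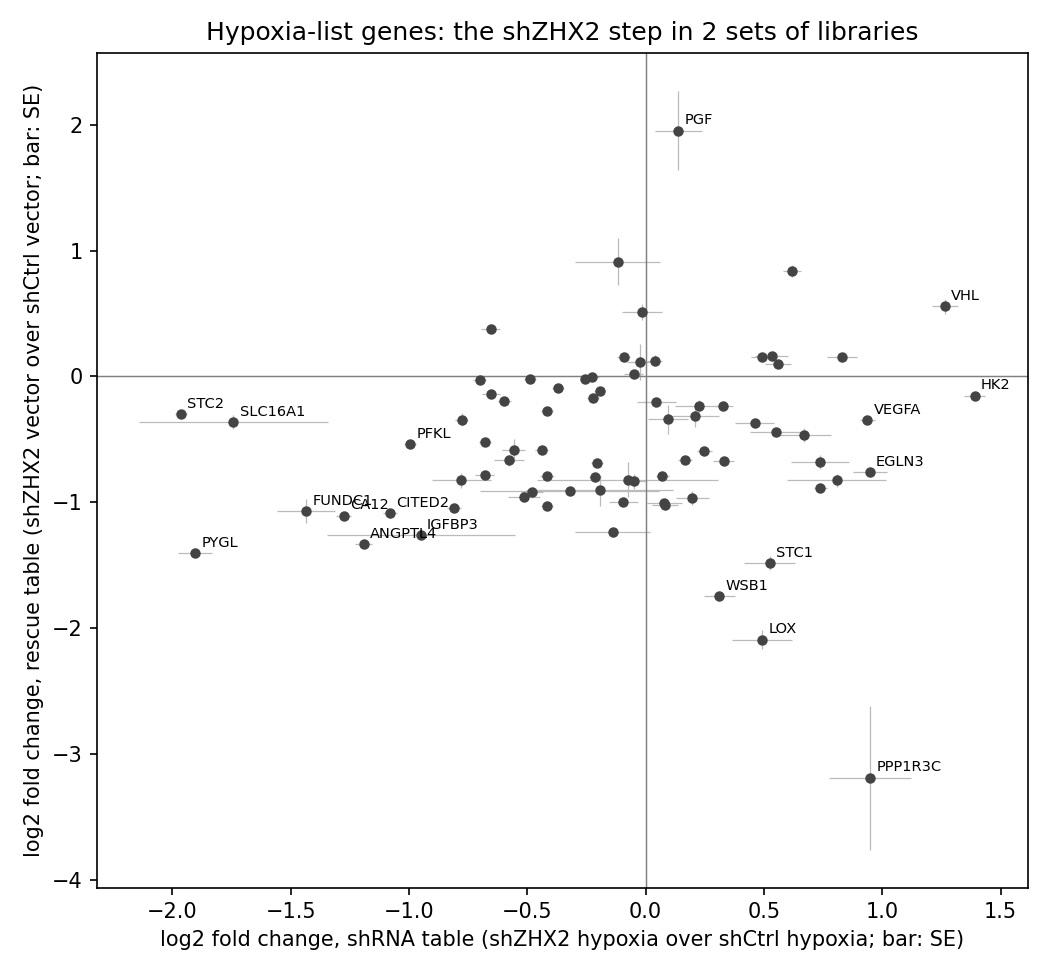
Log2 fold change of the shZHX2 step in hypoxia for 78 hypoxia-list genes, in the first table (horizontal) and in the second (vertical), with bars of 1 SE; the tables share no library. Most points lie below 0 on the vertical axis (60 called lower), while they lie on both sides of 0 on the horizontal axis (26 called higher and 35 lower), and PPP1R3C and LOX are farthest down on the right.

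Fold changes moved with the make-up of the transcripts. Genes were ranked by GC content or length and divided into 5 bins of equal size. In the bin with the lowest GC content the median log2 fold change of shZHX2 hypoxia against shCtrl normoxia was -1.15, with 11.2% of genes higher and 74.8% lower, and in the bin with the highest GC content it was 0.60, with 64.8% higher and 17.9% lower. For length, the bin with the shortest transcripts had a median of 0.27 and that with the longest -0.58. Spearman's rho with GC content over 14816 genes was 0.51 here and 0.70 in shCtrl hypoxia against normoxia, and with length -0.25 and -0.33. The part of GC content and length in the results was not tested beyond the correction: with it, 5652 genes were higher and 5903 lower, and of the 20 licensing, 20 mitosis and 12 recombination genes 19, 19 and 11 were still lower.

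**Figure D5:**
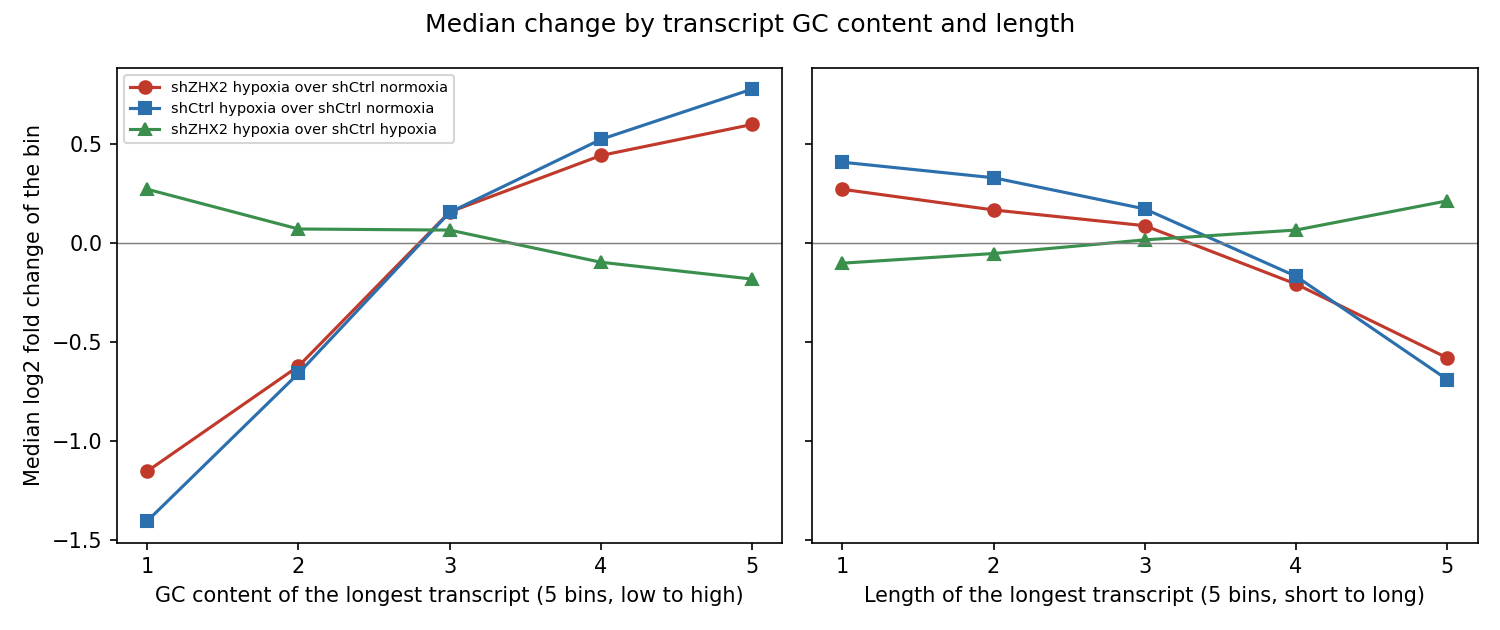
Median log2 fold change in 5 bins of genes by GC content (left) and length (right) of the longest transcript, for 3 comparisons that share libraries. The median of shZHX2 hypoxia against shCtrl normoxia goes from -1.15 to 0.60 from the lowest to the highest GC bin and from 0.27 to -0.58 from the shortest to the longest, and shZHX2 against shCtrl in hypoxia slopes the other way.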

How the data were processed

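RNA of T47D cells was measured by polyA RNA-seq with paired reads of 150 bases, per the labels' protocols. The values used are the counts per gene that the authors deposited, in one table for the 9 shRNA libraries and one for the rescue libraries. FastQC, HISAT2, featureCounts, DESeq2 and the build hg38 are listed in the submitters' processing notes; annotation, strand setting and the handling of reads shared by near-identical or overlapping genes are stated in none of the sources used here, so such genes are uncertain. The table holds 60624 gene identifiers, of which 60370 had a symbol and 58437 were found in GENCODE release 29, the source of GC content and length.

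Counts were fitted with edgeR 4.0.16 in R 4.3.3 (quasi-likelihood test, TMM scaling, 1 fit over all groups of a table, default filter on low counts, Benjamini-Hochberg adjustment over all genes tested). DESeq2 1.42.0 and limma 3.58.1 served alternatives and utilities. Scripts were tested on simulated data. Intervals for ratios of counts are exact 95% intervals and cover counting error only, as read duplicates were not marked by molecular identifiers. The members and the gene lists were chosen with earlier results of these data known. Named genes were ZHX2, list members, the 12 largest rises and falls among called protein-coding genes whose mean log2 CPM was 1 or more and whose groups did not overlap, and 6 genes per direction for each of the 3 placement rules given with the results. All 24 replicate pairs differed by more than sampling noise (chi-square per degree of freedom 1.71 to 3.38), and each library counted as 1 sample. Alternatives were another filter, other scalings, DESeq2, fits of 6 libraries, no mitochondrial genes, the replicate number as a block, a GC and length correction, and each library left out in turn. A few list members and 1 gene of a placement rule are not reported here by name; they remain in the counts and medians.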

Additional observations from a re-analysis of the deposited data

Results flagged for a closer look

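For 22 of 162 genes examined, the shZHX2 step in hypoxia went one way in the first table and the other way in the second, whose libraries are others. In each table the gene was called, and every library of shZHX2 lay on one side of every shCtrl library. The log2 fold changes of the tables also had to lie 1 or more apart. Some of the genes examined had been picked by their values in the first table, and the same count over all genes was not made. The difference between the tables was not tested. The values are the log2 fold change of the first table minus that of the second. The genes that were higher with shZHX2 in the first table and lower in the second were PPP1R3C (4.14), LOX (2.58), SCNN1G (2.45), FMR1 (2.27), WSB1 (2.06), STC1 (2.00), EGLN3 (1.71), TMEM45A (1.63), NDRG1 (1.63), HK2 (1.54), KDM4C (1.42), VEGFA (1.28), PDK1 (1.16), HIF1A (1.13), ACSS2 (1.06) and ERO1A (1.00). The genes that were lower in the first and higher in the second were CHAC1 (-5.75), SIPA1 (-3.55), TUBB2B (-3.24), LRRN2 (-3.08), RASL11A (-2.85) and AGR2 (-2.66). Some alternative runs lost the calls of PDK1 and ERO1A in the first table and that of SIPA1 in the second. CHAC1, which degrades glutathione, stood farthest apart, with -1.83 in the first table and 3.92 in the second. Its level in the second table was 23.4 CPM in shZHX2 cells with vector, against 1.53 CPM in shCtrl cells with vector (means of 3 libraries). KDM4C, a histone demethylase, and WSB1, a ubiquitin ligase subunit, are members of the hypoxia lists.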

How the results depend on the processing

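Of the counts of genes called in the 4 comparisons, 157 of 158 alternative values were within 1.5 times the reported one. The exception was shCtrl hypoxia against shCtrl normoxia with scaling by library size only, with 3385 genes higher. This follows from the shift of the median by -0.48. For list members called in shZHX2 hypoxia against shCtrl normoxia, 886 alternative counts were within 1.5 times the reported one and 26 were not. Leaving out each library in turn gave 5787 to 6064 genes higher and 6087 to 6285 lower in shZHX2 hypoxia against shCtrl normoxia, 6241 to 6487 and 5342 to 5549 in shCtrl hypoxia against shCtrl normoxia, 4685 to 5020 and 4797 to 5045 in shZHX2 hypoxia against shCtrl hypoxia, and 4575 to 4897 and 4804 to 5072 in the rescue table. Same-numbered libraries did not deviate together (correlations of -0.0301 to 0.0261 over 12 pairs), so no shared effect of the number was seen. Whether libraries of the same number were handled together cannot be told from these values. With the replicate number as a block 5939 genes were higher and 6199 lower in shZHX2 hypoxia against shCtrl normoxia. The counts were 5646 and 5885 with the GC and length correction as well. After the GC and length correction, without and with the replicate block, the direction turned for HIGD1A (0.30), KRT8 (-0.37), MYC (-0.027), PCDHB14 (0.54 or 0.53 with the block), PFKL (-0.43), PLOD2 (0.28), SNRK (0.72), SP4 (0.77), SUSD2 (-0.39) and ZNF248 (0.88) in shZHX2 hypoxia against shCtrl normoxia, for AURKB (-0.56), BIRC5 (-0.029), CDC20 (-0.52) and PLK1 (-0.53) in shCtrl hypoxia against shCtrl normoxia and for PDK1 (-0.082) in shZHX2 hypoxia against shCtrl hypoxia. With scaling by library size only it turned for KRT8 (-0.22), PFKL (-0.074) and SCD (-0.18) in shZHX2 hypoxia against shCtrl normoxia, for AURKB (-0.36), BIRC5 (-0.14), CA12 (-0.26), CDC20 (-0.25), PLK1 (-0.31) and VHL (-0.31) in shCtrl hypoxia against shCtrl normoxia and for P4HA2 (0.18) in shZHX2 hypoxia against shCtrl hypoxia. Of 215 values for single genes, 180 kept their direction and their side of the threshold in each alternative run. The cause of the other changes was not tested. Precision is limited by 3 libraries a group and by low counts in normoxia for CA9, PTPRN and PPP1R3C.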
